A study of Homo sapiens with 16 samples.

Results

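Transcripts of 10 genes of the insulin and FOXO arm of growth factor signaling were followed in MCF10HER2 cells during 45 h of HER2 kinase inhibition. The genes were the receptors INSR and IGF1R, the receptor substrates IRS1 and IRS2, and 6 genes known as targets of FOXO transcription factors or as close readouts of glucose and growth factor supply, BCL6, FBXO32, CCNG2, KLHL24, SESN3 and TXNIP. A probe was taken when its gene symbol in the table was one of these 10, which gave 12 probes, and each gene was read from the detected probe with the highest mean signal. All 10 genes had a probe that passed the detection filter, a detection p-value under 0.05 on 3 or more of the 16 arrays, so they are 10 of 11565 genes with a tested probe.

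MCF10HER2 cells are MCF10A cells, a nontransformed human breast epithelial line, in which the HER2 receptor tyrosine kinase is stably over expressed from a transgene. Parallel cultures were grown in a serum-free medium with EGF and hydrocortisone whose listed components include no insulin. Treatment was CP724,714 at 1 µM, a compound that blocks the kinase activity of HER2, with a change of medium at the same moment. RNA was taken every 3 h from 0 to 45 h and put on 16 Illumina beadchip arrays, 1 array per time point, and only the culture of 0 h was untreated, so inhibitor, fresh medium and time in culture cannot be told apart. The signal of a culture also cannot tell a change in the share of cells that express a gene from a change per cell.

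Insulin and IGF receptors phosphorylate the adaptor proteins IRS1 and IRS2, which recruit PI 3-kinase and so activate AKT. AKT phosphorylates the FOXO factors and keeps them out of the nucleus, and when AKT activity falls they enter it and turn on genes of cell cycle exit, protein breakdown, and stress defense, as well as receptors and adaptors of the same pathway. HER2, mostly as a dimer with ERBB3, is another strong activator of PI 3-kinase in breast epithelium, so FOXO target genes are a common readout of its inhibition.

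The arrays each detected between 10363 and 11436 probes. The median raw intensity of 3343 probes at background was 136 to 149 on the arrays of 0 to 21 h and 164 to 174 on those of 24 to 45 h, and the 9 h and 18 h arrays were the dimmest, with upper quartiles of 397 and 418. Of 6 basal breast markers 4 were detected on all 16 arrays, KRT5 at a log2 signal of 14.51 to 15.19 among them, whereas KRT14 was detected on 1 array and LAMB3 on 2 in spite of a signal of 11.42 to 12.86. Of the other epithelial markers 3 of 4 were detected on all arrays. The best ERBB2 probe lay near the floor at 7.93 to 8.01 and was detected on 7 arrays, so it does not show the transgene. Among markers of other cells, 4 of 5 fibroblast, 2 of 3 leukocyte and 2 of 3 endothelial genes were detected on under 3 arrays, and the others were DCN and PECAM1 on all 16 (8.13 to 8.46 and 7.97 to 8.36) and PTPRC on 7 (7.90 to 7.98).

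The promoters of the genes were searched for the FOXO core motif GTAAACA and for CAAAACA, the core of the insulin response element that FOXO factors also bind, on both strands of the 300 bases from 250 before to 50 after each transcription start in RefSeq (GRCh38.p14). Windows were held for 9 of the 10 genes, and FBXO32 had none. The FOXO core was found in TXNIP alone among the 9, and 3.42% of all 35116 windows hold it. The insulin response element core was found in KLHL24 and IRS2, as TGTTTTG on the strand of the gene, and 4.92% of all windows hold it. The E box CACGTG, searched for because carbohydrate-responsive factors that bind variants of it are known to drive TXNIP, was not found in the TXNIP window, was found in IRS1 and CCNG2, and is held by 7.26% of all windows. Only these exact letters were sought, so the search could not find the variants, in TXNIP or elsewhere. The 250 bases before the start of the 3 genes with a FOXO-type core are shown 5′ to 3′ on the strand of the gene, with the motif in capitals, at bases -124 to -118 of TXNIP, -32 to -26 of KLHL24 and -40 to -34 of IRS2. A match of letters is a description of the window and does not show binding.
TXNIP (chr1:145996580-145996829, minus strand): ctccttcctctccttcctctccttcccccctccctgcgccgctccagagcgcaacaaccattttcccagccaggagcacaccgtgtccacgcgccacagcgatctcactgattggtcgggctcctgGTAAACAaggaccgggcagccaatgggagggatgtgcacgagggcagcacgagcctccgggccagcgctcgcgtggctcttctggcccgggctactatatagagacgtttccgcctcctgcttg
KLHL24 (chr3:183635373-183635622, plus strand): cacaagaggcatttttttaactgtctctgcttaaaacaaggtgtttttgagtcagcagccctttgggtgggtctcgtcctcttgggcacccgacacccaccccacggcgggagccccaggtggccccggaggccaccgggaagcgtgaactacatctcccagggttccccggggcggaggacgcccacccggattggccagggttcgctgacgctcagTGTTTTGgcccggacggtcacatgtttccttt
IRS2 (chr13:109786584-109786833, minus strand): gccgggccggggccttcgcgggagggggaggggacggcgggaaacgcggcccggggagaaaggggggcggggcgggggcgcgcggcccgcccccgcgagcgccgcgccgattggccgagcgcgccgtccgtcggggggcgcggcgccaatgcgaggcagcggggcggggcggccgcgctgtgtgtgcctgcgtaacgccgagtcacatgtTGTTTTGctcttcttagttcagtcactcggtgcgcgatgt

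Values are given as background-corrected, quantile-normalized log2 signal, a scale on which a probe that is never detected, such as the second BCL6 probe, stayed between 7.86 and 7.91. Changes were tested with limma on means of 6 phases (0 h, 3 h, 6 to 9 h, 12 to 21 h, 24 to 33 h and 36 to 45 h), with p-values adjusted over all 12321 tested probes and called at an adjusted p under 0.05. The lone arrays of 0 h and 3 h are assumed to vary like the arrays within the later phases, and errors of changes are standard errors (SE). TXNIP, BCL6, IRS1, KLHL24 and CCNG2 were higher at 3 h than at 0 h, FBXO32 and IRS2 fell during the first day, and FBXO32, BCL6, IRS1 and KLHL24 were higher from 36 h on than from 24 to 33 h. INSR, IGF1R and SESN3 were called in none of the comparisons with the main settings. A spline of time over all 16 arrays called 4 of the 10, namely FBXO32 (adjusted p = 7.05e-06), IRS2 (0.00301), BCL6 (0.0176) and IRS1 (0.0324), beside 41.9% of all tested probes. The call of IRS1 was lost when any of 5 single arrays was left out (adjusted p up to 0.0889) and that of BCL6 without the 39 h (0.0501) or the 42 h array (0.0635), so 2 of the 10 were called without the 42 h array. KLHL24 had 0.137 and TXNIP 0.151, but without the 0 h array KLHL24 had 0.00142, and without the 3 h array TXNIP had 7.39e-05. Median scaling also called both (0.0343 and 0.00787), but with it the call of IRS2 was lost (0.147).

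**Figure D1:**
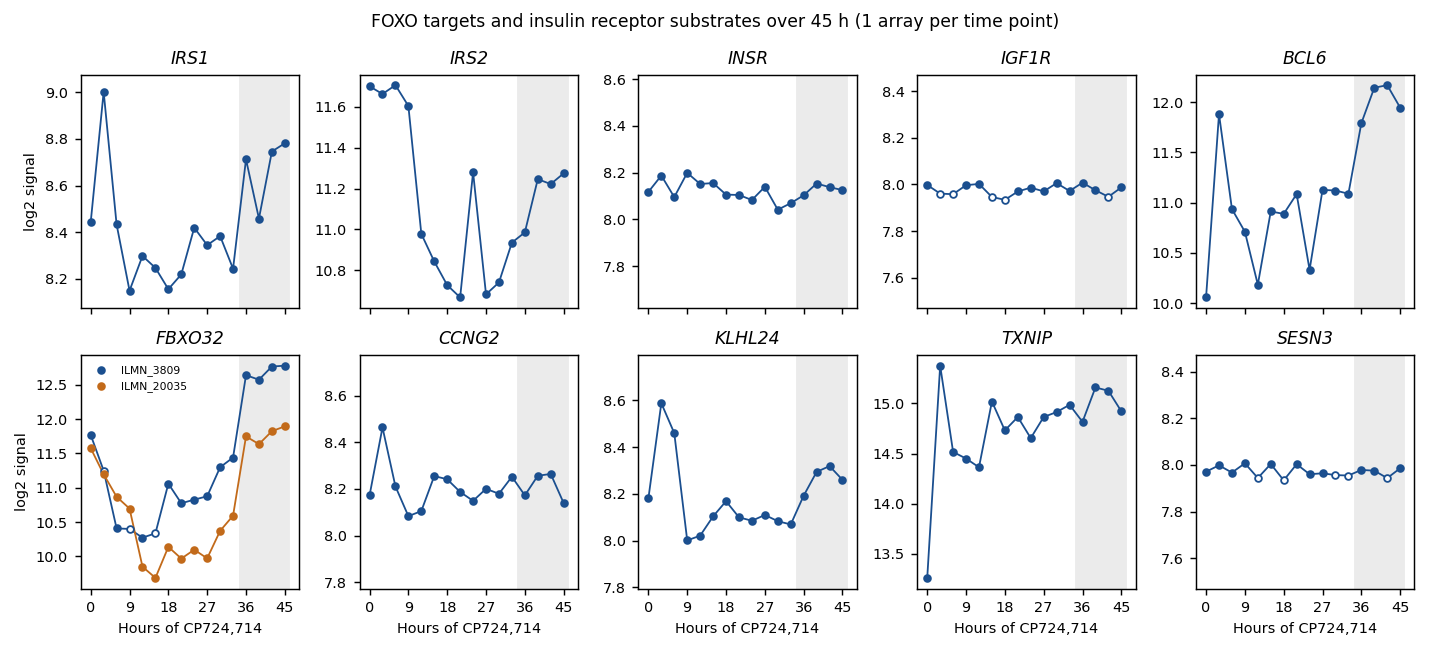
Log2 signal of the 10 genes against hours of CP724,714, 1 point per array, with the used probe in blue and the other FBXO32 probe in orange. Open points are arrays on which the probe was not detected, the grey band covers 36 to 45 h, and each panel has its own axis range. TXNIP, BCL6, IRS1, KLHL24 and CCNG2 stand up at 3 h, FBXO32 and IRS2 sink by 12 h, and FBXO32 and BCL6 step up at 36 h.

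The receptors themselves gave little signal. INSR, the insulin receptor, was detected on all 16 arrays but stayed between 8.04 at 30 h and 8.20 at 9 h, a range of 1.12-fold. IGF1R, the receptor for IGF-I and IGF-II, was detected on 11 arrays and lay between 7.93 and 8.01. The difference between 3 h and 0 h was 0.07 ± 0.05 log2 for INSR (adjusted p = 0.456) and -0.04 ± 0.03 for IGF1R (0.557), and that between 36 to 45 h and 24 to 33 h was 0.05 ± 0.03 (0.222) and -0.00 ± 0.02 (0.890). At signals this close to the floor a change of the transcripts may be larger than the difference on this scale.

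IRS1, the adaptor best known for mitogenic signaling from the IGF-I receptor, had a log2 signal of 8.44 without inhibitor and 9.00 after 3 h, then 8.43 and 8.15 at 6 and 9 h, 8.30, 8.25, 8.16 and 8.22 from 12 to 21 h, 8.42, 8.34, 8.38 and 8.24 from 24 to 33 h, and 8.71, 8.46, 8.75 and 8.78 from 36 to 45 h. The 3 h array was the highest of the 16, and all 4 late arrays lay above the 4 before them. IRS1 rose 1.47-fold by 3 h (0.56 ± 0.14 log2, adjusted p = 0.0106) and was 1.25-fold higher at 36 to 45 h than at 24 to 33 h (0.33 ± 0.07, adjusted p = 0.00161). The late level was 1.25-fold under that of 3 h (-0.33 ± 0.11, adjusted p = 0.0205) and differed from 0 h by 0.23 ± 0.11 (0.110). The 3 h call of IRS1 was lost with no background correction (0.67 log2, adjusted p = 0.0545), with a correction from the signals alone (0.77, 0.0706) and with scaling to the median in place of quantiles (0.17, 0.591). The difference between the late arrays and 3 h was not called with no background correction (-0.36, adjusted p = 0.108) or with the correction from the signals alone (-0.41, 0.135), and median scaling turned it to 0.16 (0.357).

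IRS2, the other widely expressed substrate and the one linked more to glucose metabolism, took another course. The log2 signal of IRS2 started at 11.70, 11.66, 11.71 and 11.60 from 0 to 9 h and went on with 10.98, 10.84, 10.73 and 10.67 from 12 to 21 h, 11.28, 10.68, 10.74 and 10.94 from 24 to 33 h, and 10.99, 11.25, 11.22 and 11.27 from 36 to 45 h. The first 4 arrays lay above all later ones, and the 24 h array stood 0.61 above 21 h and 0.60 above 27 h. IRS2 fell by 0.63 between 9 h and 12 h. Its raw intensity was 3410, 1893 and 2109 at 6, 9 and 12 h, with a dim array at 9 h. The step from 9 h to 12 h was thus downward only after normalization. At 12 to 21 h IRS2 was 1.86-fold lower than at 0 h (-0.90 ± 0.18, adjusted p = 0.000684). At the end it was still 1.43-fold lower than at 0 h (-0.52 ± 0.18, adjusted p = 0.0280) and 1.40-fold lower than at 3 h (-0.48 ± 0.18, adjusted p = 0.0363). The call against 0 h was lost without the 36 h array (-0.45, adjusted p = 0.0619) and with median scaling (-0.53, 0.124). The call against 3 h was lost without the 36 h array (-0.42, 0.0786), and median scaling turned that difference to 0.21 (0.537). The late difference from 24 to 33 h was 0.27 ± 0.11 (adjusted p = 0.0860), and without the 24 h array it was 0.40 ± 0.10 (0.00727). The 24 h array was also the first with the higher raw background, at 165 against 136 at 21 h, and the part of this in its IRS2 value was not tested.

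TXNIP, which binds thioredoxin and limits glucose uptake, showed the largest early change of the 10. The untreated culture gave a log2 signal of 13.26 and the first treated culture 15.38, followed by 14.52 and 14.45 at 6 and 9 h, 14.36, 15.02, 14.73 and 14.86 from 12 to 21 h, 14.65, 14.86, 14.91 and 14.99 from 24 to 33 h, and 14.82, 15.16, 15.13 and 14.92 from 36 to 45 h. Every treated array lay above the untreated one by at least 1.10 log2, and the 3 h array was the highest. TXNIP rose 4.33-fold by 3 h (2.12 ± 0.21 log2, adjusted p = 2.78e-06), and by 6 to 9 h its level was 1.86-fold under that of 3 h (the difference of 3 h from 6 to 9 h was 0.89 ± 0.18, adjusted p = 0.00105). It was 2.80-fold above 0 h at 12 to 21 h (1.48 ± 0.16, adjusted p = 9.92e-07) and 3.35-fold above it at 36 to 45 h (1.75 ± 0.16, adjusted p = 8.06e-08). Between 24 to 33 h and 36 to 45 h it differed by 0.15 ± 0.10 (adjusted p = 0.322), and between 3 h and 36 to 45 h by -0.37 ± 0.16 (0.0776).

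BCL6, a transcriptional repressor and an established FOXO target, peaked early and rose again late. From a log2 signal of 10.06 without inhibitor it went to 11.88 after 3 h, to 10.94 and 10.71 at 6 and 9 h, to 10.18, 10.91, 10.89 and 11.08 from 12 to 21 h, to 10.33, 11.13, 11.12 and 11.09 from 24 to 33 h, and to 11.79, 12.14, 12.17 and 11.95 from 36 to 45 h. All 4 late arrays lay above the 4 of 24 to 33 h, and the 3 h value fell within their range. BCL6 rose 3.54-fold by 3 h (1.83 ± 0.35 log2, adjusted p = 0.00197), to a level 2.08-fold above that of 6 to 9 h (1.06 ± 0.31, adjusted p = 0.0153). The late rise over 24 to 33 h was 2.14-fold (1.10 ± 0.18, adjusted p = 0.000146), which put the end level 3.88-fold above 0 h (1.96 ± 0.28, adjusted p = 1.51e-05). The early and the late level differed by 0.13 ± 0.28 log2 (late minus 3 h, adjusted p = 0.747), and the interval of 2 SE ran from -0.43 to 0.69. BCL6 lost its 3 h call when the mean of 0 h and 6 h was the baseline (1.39, adjusted p = 0.0711), and its call against 6 to 9 h without the 9 h array (0.95, 0.0708).

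FBXO32, the muscle-type ubiquitin ligase also called atrogin-1 that FOXO factors induce in wasting muscle, first fell and then rose the most of the 10. On the used probe the log2 signal ran 11.77, 11.25, 10.41, 10.40, 10.27, 10.34, 11.06 and 10.77 from 0 to 21 h, 10.83, 10.88, 11.30 and 11.44 from 24 to 33 h, and 12.64, 12.57, 12.76 and 12.78 from 36 to 45 h. The other FBXO32 probe ran 11.58, 11.20, 10.87, 10.70, 9.85, 9.69, 10.14 and 9.97 from 0 to 21 h, 10.10, 9.97, 10.37 and 10.59 from 24 to 33 h, and 11.75, 11.64, 11.82 and 11.89 from 36 to 45 h. On both probes the late arrays lay above all 4 of 24 to 33 h, but on the used probe they lay well above 0 h and on the other close to it.
The fall to 12 to 21 h was 2.23-fold on the used probe (-1.16 ± 0.24 log2, adjusted p = 0.000916) and 3.17-fold on the other (-1.66 ± 0.19, adjusted p = 1.50e-06). The late rise over 24 to 33 h was 2.99-fold (1.58 ± 0.15, adjusted p = 3.96e-07) and 2.86-fold (1.52 ± 0.12, adjusted p = 4.83e-08). The probes parted on the net change of FBXO32 from 0 h to 36 to 45 h, which was 0.92 ± 0.24 on the used probe (1.89-fold, adjusted p = 0.00463) and 0.20 ± 0.19 on the other (0.466). They also parted on the difference of 3 h from 6 to 9 h, 0.84 ± 0.26 (adjusted p = 0.0223) against 0.41 ± 0.21 (0.165), and the first was lost without the 9 h array (0.84, adjusted p = 0.0609). The used probe was detected on 13 of the 16 arrays and had detection p-values up to 0.133 at these bright signals, whereas the other had a detection p-value of 0 on all 16.

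KLHL24, CCNG2 and SESN3 were measured near the floor. KLHL24, a substrate adaptor of a ubiquitin ligase complex, started from 8.18 and gave 8.59, 8.46 and 8.001 from 3 to 9 h, 8.02, 8.10, 8.17 and 8.10 from 12 to 21 h, 8.08, 8.11, 8.08 and 8.07 from 24 to 33 h, and 8.19, 8.29, 8.32 and 8.26 from 36 to 45 h. Its 3 h and 6 h arrays were the highest, and the late 4 lay above the 4 before them. KLHL24 rose 1.33-fold by 3 h (0.41 ± 0.12 log2, adjusted p = 0.0319) and was 1.13-fold higher at 36 to 45 h than at 24 to 33 h (0.18 ± 0.06, adjusted p = 0.0360). The late call of KLHL24 was lost when any of 7 of the 8 arrays compared was left out (adjusted p = 0.0575 to 0.101), and its call against 6 to 9 h without the 9 h array (0.13, 0.197). Its 3 h change was 0.72 with no background correction (adjusted p = 0.109), 0.87 with the correction from the signals alone (0.140) and 0.16 with median scaling (0.334).
CCNG2, the cyclin G2 of cells that leave the cycle, moved from 8.17 in the untreated culture to 8.46 after 3 h and lay between 8.08 and 8.26 on every later array. It rose 1.22-fold by 3 h (0.29 ± 0.08, adjusted p = 0.0181) and was then 1.24-fold above 6 to 9 h (0.32 ± 0.07, adjusted p = 0.00182). From 24 to 33 h to 36 to 45 h CCNG2 differed by 0.01 ± 0.04 (adjusted p = 0.851). Its 3 h change was 0.56 with no background correction (adjusted p = 0.0511), 0.69 with the correction from the signals alone (0.0628) and 0.09 with median scaling (0.530). SESN3, a stress-induced inhibitor of TOR signaling, was detected on 11 arrays between 7.93 and 8.01, with differences of 0.03 ± 0.03 at 3 h (0.685) and 0.01 ± 0.02 late (0.665).

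At 3 h against 0 h, then, 5 of the 10 genes were called higher and 0 lower (adjusted p under 0.05, limma), beside 6.19% of all tested probes called higher and 6.38% lower. At an unadjusted p under 0.05 the count of lower genes was also 0, here and in the comparisons of 3 h with 6 to 9 h and of 36 to 45 h with 24 to 33 h. The median change of the 10 was 0.18 log2 and that of all probes 0.00. The 10 genes and the lists below were chosen with earlier results of these data known. Their counts and medians beside all probes are therefore not independent of those results. Of the genes far above the floor, FBXO32 at -0.52 ± 0.30 (adjusted p = 0.300) and IRS2 at -0.04 ± 0.23 (0.943) were not called. With median scaling 3 of the 10 were called, TXNIP (1.505) and BCL6 (1.24) higher and FBXO32 lower (-1.26, adjusted p = 0.00347), and the median of all probes moved to -0.11. Against 6 to 9 h, 6 were higher at 3 h and 0 lower, beside 12.8% and 11.6% of all probes, with a median of 0.34 for the 10. With median scaling that count was 1, TXNIP. FBXO32 was among the 6 while falling, with 11.77, 11.25 and 10.41 at 0, 3 and 6 h, so its call does not mark a peak. Its other probe was not called (0.41 ± 0.21).

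At 36 to 45 h against 24 to 33 h, 4 of the 10 were called higher and 0 lower, beside 12.7% and 12% of all probes, and the median change was 0.17 against 0.00. The 4 arrays of 36 to 45 h all lay above the 4 of 24 to 33 h for the same 4 genes, FBXO32, BCL6, IRS1 and KLHL24, beside 15.3% of all probes. Median scaling, no background correction and the correction from the signals alone each left 4 of the 10 called. Other alternatives moved the calls. Array weights added IRS2 (adjusted p = 0.00993) and INSR (0.0420), and a baseline of 12 to 33 h added IRS2 (0.0153). A straight line over 24 to 45 h added TXNIP (0.0389), and with no detection filter KLHL24 was lost (0.0631). All 8 arrays of 24 to 45 h belong to those with the higher raw background.

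**Figure D2:**
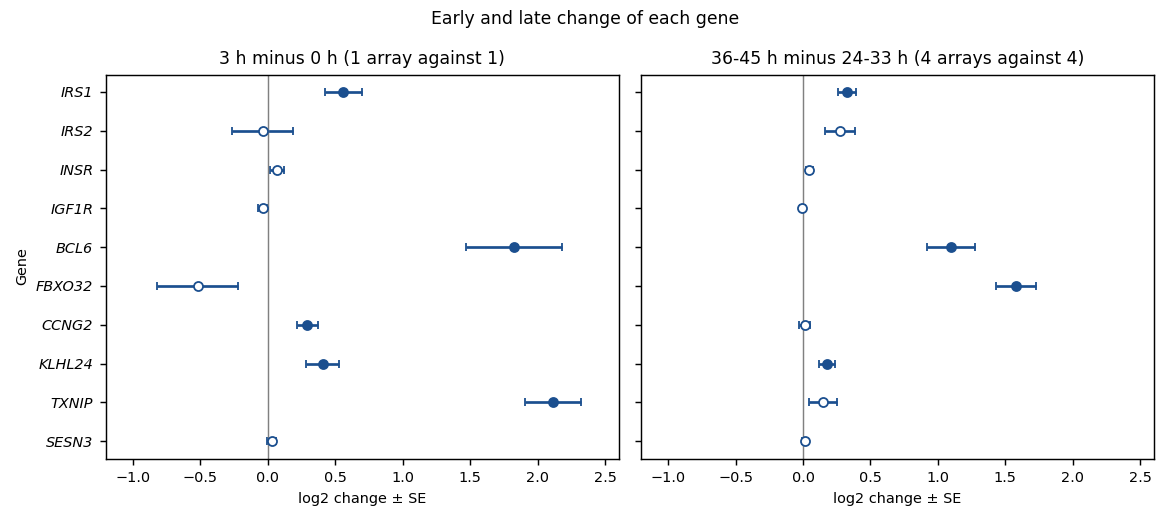
Log2 change of each of the 10 genes at 3 h against 0 h (left, 1 array against 1) and at 36 to 45 h against 24 to 33 h (right, 4 arrays against 4), with bars of 1 SE. Filled points were called by limma at an adjusted p under 0.05. TXNIP and BCL6 lead on the left, with 2.12 and 1.83, and FBXO32 and BCL6 on the right, with 1.58 and 1.10.

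For FBXO32, IRS1 and KLHL24 the largest step after 12 h was the one into 36 h. From 33 h to 36 h FBXO32 went up by 1.20 log2 (2.30-fold) on the used probe and 1.15 (2.23-fold) on the other, while its other steps from 15 h on ran from -0.29 to 0.72 on the used probe. IRS1 went up by 0.47 against -0.25 to 0.29 for its other steps, KLHL24 by 0.12 against -0.07 to 0.10, and BCL6 by 0.70 against -0.75 to 0.80. Thus the step of BCL6 was within the size of its other steps, and those of FBXO32, IRS1 and KLHL24 were outside. Over all tested probes the root mean square step at 36 h was 0.206, against 0.0905 to 0.174 at the other intervals from 15 h on and 0.235 to 0.325 at the first 4. The 36 h array thus differed more from its predecessor than the other arrays from 15 h on, and the part of this in the rise was not tested.

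Set directly against 3 h, the level at 36 to 45 h was higher for FBXO32 alone among the 10 (2.71-fold, 1.44 ± 0.24, adjusted p = 6.33e-05, and 1.49-fold on the other probe, adjusted p = 0.0188) and lower for IRS2, IRS1, KLHL24 and CCNG2, by 0.26 to 0.48 on the log2 scale. Of all tested probes 20.2% were called higher and 20.8% lower. Median scaling gave 2 calls, FBXO32 and the new call of BCL6 (0.77, adjusted p = 0.0226), and moved the median of all probes to 0.12. With no background correction and with the correction from the signals alone the lower calls of IRS1 (adjusted p = 0.108 and 0.135) and KLHL24 (0.0631 and 0.0887) were lost, and with no detection filter that of IRS2 (0.0763). Against 0 h the late level was higher for BCL6, TXNIP and FBXO32 and lower for IRS2, beside 17.6% of all probes higher and 17.9% lower. On the other FBXO32 probe that difference was 0.20 ± 0.19 and was not called. At 12 to 21 h TXNIP was higher than at 0 h and IRS2 and FBXO32 were lower, beside 15.3% and 15.9%. BCL6 differed by 0.71 ± 0.28 in that comparison and was not called. It was called with median scaling, with array weights, and when the 6, 9, 12 or 24 h array was left out. Counting any treated array at least 1.7-fold from 0 h in either direction, 4 of the 10 passed, TXNIP, BCL6, FBXO32 and IRS2, as did 19.5% of all tested probes.

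Among 94 further genes of the pathway, in 6 lists, 75 had a tested probe, of which 8 were higher and 7 lower at 3 h and 19 were higher and 11 lower at 36 to 45 h against 24 to 33 h. Over all tested probes the shares were 6.19% higher and 6.38% lower at 3 h and 12.7% and 12% late, and the counts of each list below stand beside the same shares. Of the 3 FOXO factors tested, 2 were called higher late, beside 12.7% of all probes. FOXO4 (MLLT7 in the table) was 8.11 at 0 h, 8.88 to 9.16 from 24 to 33 h and 9.64 to 9.70 from 36 to 45 h, a late rise of 1.62-fold (0.70 ± 0.11, adjusted p = 0.000120). FOXO3 rose by 0.41 ± 0.10 late (adjusted p = 0.00450), on a probe that was detected on 5 arrays at signals of 10.00 to 11.67. FOXO1 differed by -0.06 ± 0.21 at 3 h (adjusted p = 0.897) and by 0.07 ± 0.10 late (0.666).

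Of 27 other genes known as FOXO targets, 23 were tested. At 3 h 4 were higher and 2 lower, beside 6.19% and 6.38% of all probes. At 36 to 45 h against 24 to 33 h 11 were higher and 4 lower, beside 12.7% and 12%, and the median change of the 23 was 0.22 log2 against 0.00 over all probes. The autophagy gene GABARAPL1 was 10.73 at 0 h and 12.11 at 3 h (1.38 ± 0.33, adjusted p = 0.00812), then 11.06 to 11.62 from 24 to 33 h and 12.22 to 12.51 from 36 to 45 h (0.96 ± 0.16, adjusted p = 0.000249). ERBB3, the dimer partner of HER2, rose from 9.01 at 0 h to 10.34 at 3 h and 11.40 at 6 h, which made 2.50-fold by 3 h (1.32 ± 0.29, adjusted p = 0.00487), and PDK4, the kinase that shuts pyruvate dehydrogenase, went from undetected in the untreated culture to a signal at least 2.38-fold higher after 3 h (adjusted p = 0.00502).
GADD45B, a growth arrest gene, fell by 1.00 log2 at 3 h (adjusted p = 0.000519) and was 10.05 to 10.42 from 24 to 33 h and 11.60 to 11.70 from 36 to 45 h, a late rise of 2.59-fold (1.38 ± 0.08, adjusted p = 1.38e-09). CITED2, a transcriptional coregulator, rose 2.49-fold late (1.32 ± 0.12, adjusted p = 2.56e-07) without a 3 h call (-0.28 ± 0.24, adjusted p = 0.529). CDKN1A, the cell cycle inhibitor p21, went the other way, 1.78-fold lower late (-0.83 ± 0.08, adjusted p = 3.67e-07). It was detected on 2 of the 4 arrays of 36 to 45 h and on all 4 of 24 to 33 h.

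**Figure D3:**
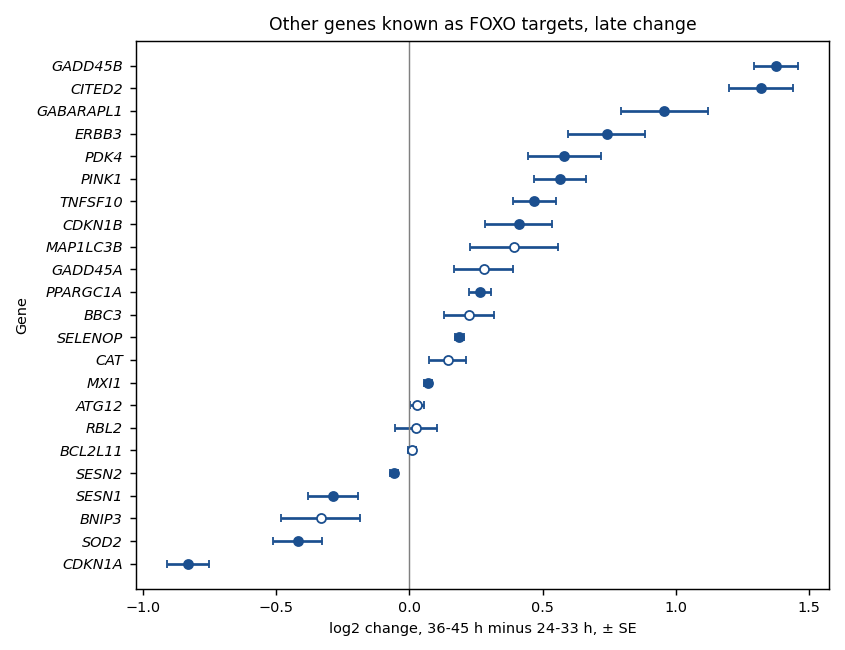
Log2 change at 36 to 45 h against 24 to 33 h of the 23 tested genes among 27 others known as FOXO targets, with bars of 1 SE and filled points where limma gave an adjusted p under 0.05. Filled points lie above 0 for 11 genes, up to 1.38 for GADD45B, and below 0 for 4, down to -0.83 for CDKN1A.

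Among the ligands and binding proteins 4 of 10 genes were tested, with 0 called at 3 h by limma (0 at an unadjusted p under 0.05) and IGFBP6, which binds IGF-II, lower late (-0.64 ± 0.10, adjusted p = 7.57e-05). At 36 to 45 h 3 of these 4 were lower than at 0 h, beside 17.9% of all probes. Of 13 tested receptors, adaptors and their inhibitors, SOCS1, a brake on cytokine and insulin receptor signaling, was lower at 3 h (-0.87 ± 0.12, adjusted p = 9.17e-05), and late GRB10 (0.15) and GAB2 (0.14) were higher and PTPN1 (-0.30) and SOCS2 (-0.21) lower. Of 23 tested genes of PI 3-kinase, AKT and TOR, 2 were higher and 3 lower at 3 h, beside 6.19% and 6.38% of all probes. These included SGK1, an AKT-related kinase, which fell by 1.29 (adjusted p = 0.000139), PIK3R1, the regulatory subunit p85, which fell by 0.77 (0.0103), MLST8, a subunit of both TOR complexes, which fell by 0.69 (0.00372), and RICTOR, of the second TOR complex, which rose by 0.97 (0.0287). Late, 3 of the 23 were higher and 3 lower, near the 12.7% and 12% of all probes, with TRIB3, a pseudokinase that binds AKT, at -0.84 (adjusted p = 2.83e-05), the lipid phosphatase INPPL1 at 0.46 (0.00557), and MLST8 at -0.23 (0.0256).

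Of the 9 tested TXNIP relatives and regulators, ARRDC4, an arrestin-domain protein of the TXNIP family, had the 3 h spike without the later level. Its signal started at 8.18, reached 9.21 after 3 h and 8.33 after 6 h, and lay between 8.01 and 8.13 on every array from 9 h on. ARRDC4 rose 2.05-fold by 3 h (1.04 ± 0.07, adjusted p = 4.59e-08) and differed from 0 h by -0.07 ± 0.06 at 36 to 45 h (0.367), where TXNIP was 3.35-fold up. ARRDC4 was near the floor on those arrays. ARRDC1 was lower at 3 h (-0.58 ± 0.17, adjusted p = 0.0265), and TXN, the thioredoxin that TXNIP binds, was higher at 3 h (0.23, 0.0377) and lower late (-0.15, 0.00286), where ARRDC2 was higher (0.15, 0.00361). ARRDC2 was detected on 2 of the 4 arrays of 36 to 45 h and on 3 of the 4 of 24 to 33 h.

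**Figure D4:**
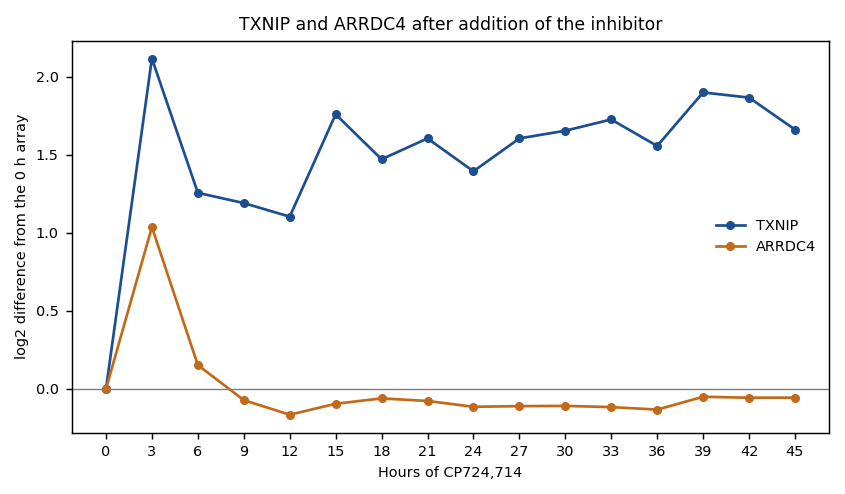
Log2 difference from the 0 h array of TXNIP (blue) and ARRDC4 (orange) at each time point, 1 array per point. Both are highest at 3 h, at 2.12 and 1.04, and from 9 h on ARRDC4 is below its 0 h level while TXNIP stays at least 1.10 above.

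Probes whose course over the 16 arrays was most like that of 2 of the genes were sought by Pearson correlation, given as a description of arrays that share 1 time course. Nearest to FBXO32 were BBOX1 (r = 0.97), ELF3 (0.97), CITED2 (0.96), PCBP2 (0.95) and EPHB6 (0.95), with ranges between lowest and highest array of 1.53-fold for PCBP2 to 4.81-fold for ELF3. Nearest to IRS2 were NCOA1 (r = 0.93), POLG (0.91), KIAA1468 (0.90), VGF (0.90) and TAX1BP3 (0.90), with ranges of 1.14-fold for NCOA1, which was detected on 9 arrays, to 3.83-fold for VGF.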

How the data were processed

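Gene expression was measured on Illumina human Ref-8 v2 beadchips in 16 parallel cultures, and each array was placed at its hour from its labels. The authors deposited 1 table with the raw intensity of 20589 probes on each array, not normalized between arrays, and a detection p-value per probe against the negative controls of its array. The scanner software and genome build are not given in the sources used here. Depth does not apply to arrays, and their number, 1 per time point, limits the precision.

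The neqc function of limma (version 3.58.1, under R 4.3.3) subtracted background estimated from the detection p-values, added 16 and equalized quantiles, giving log2 values that differ from the log2 of the deposited intensities at low signals. A probe entered the fits when at least 3 arrays gave it a detection p under 0.05 (12321 probes). limma's lmFit and eBayes with trend were fitted to phase means and, for time dependence, to a natural cubic spline with 4 degrees of freedom, with Benjamini-Hochberg adjustment over all probes. Tests on simulated data came first, with noise that for each probe had the same spread on every array. They could not check the assumption made for the lone arrays. The 10 genes and all lists were chosen with earlier results of these data known, so they are not independent of them. The genes named were the 10, at most 4 of each list with the largest called changes at 3 h and late, and the 5 probes most correlated with IRS2 and FBXO32. A gene that this rule names is not reported here. The comparison of 12 to 21 h with 0 h and the second FBXO32 probe were added after values were seen. A probe undetected on all arrays of a side gives a bound, set against the lowest detected signal. Alternatives changed the background correction, normalization, filter, probe choice, array weights, baseline and spline, and left out each array.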

Additional observations from a re-analysis of the deposited data

How the results depend on the processing

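Of the 10 genes, those called at 3 h against 0 h fell from 5 to 2 with no background correction and to 2 with normexp from the signals alone. They fell to 2 against the mean of 0 h and 6 h. With median scaling 3 were called, of which FBXO32 was a new call in the lower direction (-1.26). Median scaling left 1 of 6 calls at 3 h against 6 to 9 h. At 36 to 45 h against 3 h the 5 calls became 3 with no background correction, 3 with normexp alone and 2 with median scaling, which turned the differences of IRS1 (to 0.16) and IRS2 (to 0.21). Of these 2, FBXO32 was kept and BCL6 was new. A term for the arrays from 24 h on left 2 of the 4 genes called by the spline, without BCL6 (adjusted p = 0.0686), whose fitted range went from 1.49 to 2.13, and IRS1 (0.0659), whose range went from 0.56 to 0.53. The cause of these changes was not tested.

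Leaving out 1 array at a time gave 5 to 5 calls at 3 h against 0 h, 3 to 6 at 3 h against 6 to 9 h (3 without the 9 h array), 3 to 4 at 36 to 45 h against 24 to 33 h, 4 to 6 against 3 h, 3 to 5 against 0 h, 3 to 4 at 12 to 21 h against 0 h, and 2 to 5 for the spline. The late rise of FBXO32, BCL6 and IRS1 over 24 to 33 h was called under every alternative run. No paired analysis was possible because the cultures carry no replicate numbers, with 1 array per hour sampled. Signal over background limits INSR, IGF1R, SESN3, CCNG2 and KLHL24, which lay near the floor. It also limits IRS1, which at 8.15 to 9.00 was not far above it.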

Other observations

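BCL6 and TXNIP dipped together on 2 arrays, a pattern looked at after the values of the 10 genes were seen and given without a test. At 12 h and again at 24 h, BCL6 lay below both neighbouring time points, by 0.63 and 0.78 log2 from their mean, and TXNIP did so by 0.37 and 0.21. INSR and SESN3, both near the floor, also lay below at both times, by 0.06 or less, which makes 4 of the 10 genes, beside 8.91% of all tested probes. SESN3 was not detected on the 12 h array. IRS1 and IGF1R, the latter near the floor, lay above at both times, as did 9.41% of all tested probes. Of the 75 tested genes of the pathway lists 12 lay below at both times (16%, beside 8.91% of all tested probes) and 8 above (10.7%, beside 9.41%). The wider dips among the 12 were those of ERBB3 (0.68 and 0.45), PDK4 (0.33 and 0.42), GABARAPL1 (0.37 and 0.31), CITED2 (0.35 and 0.28) and CDKN1B (0.18 and 0.38), all from the list of other FOXO targets, of which CDKN1A lay above at both times (0.20 and 0.13). Since each time is 1 array, the culture and the array of 12 h and 24 h cannot be told apart. The 12 h array followed the dim 9 h array, and the 24 h array was the first with the higher raw background. The part of this in the dips was not tested.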
